A study of Mus musculus with 8 samples.

Results

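The ubiquitin and proteasome gene promoters are the ATAC-seq peaks whose centre lies within 1000 bp of a transcription start site of a gene named as a proteasome subunit (Psma to Psmg), a ubiquitin-conjugating enzyme (Ube2), a ligase or ligase subunit (Ube3, Fbxl, Fbxo, Fbxw, Cul, Rnf, Trim) or a deubiquitinase (Usp). The gene symbol and distance in the deposited table chose them, with no use of the measured values, and gave 116 peaks at 112 genes, 1.81% of 6425 peaks. By role, 17 were proteasome, 17 conjugating enzyme, 62 ligase and 20 deubiquitinase peaks, and Psmc6, Ube2m, Rnf13 and Usp5 had 2 peaks each. ATAC-seq reads open chromatin by letting the Tn5 transposase insert adapters into accessible DNA. The tissue was primary tubuloids, epithelial structures grown in Matrigel from dissociated renal cortex of 4 wildtype mice. Vehicle-treated tubuloids (4 libraries) were compared with tubuloids given myoglobin, the haem protein of muscle that injures tubules in rhabdomyolysis (4 libraries), each collected after 12 h. The labels give no age, no composition of the vehicle and no statement of which libraries shared a mouse or culture, so p-values measure the spread between these samples, which may be technical.

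Ubiquitin is a small protein that is attached to other proteins by a relay of activating (E1), conjugating (E2) and ligase (E3) enzymes, and removed by deubiquitinases. Chains of ubiquitin send a protein to the proteasome, a core particle of stacked alpha and beta rings that is capped by a regulatory particle with ATPase and non-ATPase subunits. Ligases choose the substrate: F-box proteins do so as exchangeable parts of cullin complexes, while RING (Rnf) and Trim proteins and the HECT enzymes of the Ube3 family act more directly. Not every Rnf or Trim protein is an established ligase. Proteasome genes are known to be raised together by the factor NFE2L1 through antioxidant response elements when proteasome activity falls short.

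The promoter windows shown are those of the member peaks with the largest positive and negative difference in each role (mean value of at least 10) where a window was used, and of the first 3, by alphabet, of the 4 proteasome genes that hold an antioxidant response element match (the other is Psme4), because the pathway's known joint control runs through that element. Fbxo9 was added after its values were seen, as the member with the smallest p. Each is a RefSeq window of build GRCm38.p6, the assembly that mm10 names, from 250 bases before to 50 after a start site, printed 5′ to 3′ in the direction of the gene. Capitals mark every match to the motifs searched. The motif of the ETS family was CCGGAAGT, the NF-Y box CCAAT, and the GC box of SP/KLF factors GGGCGG. Those of CREB/ATF and of E-box factors were TGACGTCA and CACGTG. YY1 was given by AAGATGGC, the antioxidant response element by TGACNNNGC, the TATA box by TATAAA and the heat shock element by GAANNTTC. The core of nuclear respiratory factor 1 and the palindrome of the glucocorticoid response element were also searched, all on both strands, with overlaps allowed.
Psma1, chr7:114276067-114276366, minus strand: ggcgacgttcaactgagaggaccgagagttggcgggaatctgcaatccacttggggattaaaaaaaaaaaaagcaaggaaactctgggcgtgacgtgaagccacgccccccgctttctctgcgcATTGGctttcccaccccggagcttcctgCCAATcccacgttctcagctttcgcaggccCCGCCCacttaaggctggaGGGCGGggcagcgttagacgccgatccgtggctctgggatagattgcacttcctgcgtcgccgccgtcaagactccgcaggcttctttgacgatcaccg
Psma5, chr3:108256676-108256975, plus strand: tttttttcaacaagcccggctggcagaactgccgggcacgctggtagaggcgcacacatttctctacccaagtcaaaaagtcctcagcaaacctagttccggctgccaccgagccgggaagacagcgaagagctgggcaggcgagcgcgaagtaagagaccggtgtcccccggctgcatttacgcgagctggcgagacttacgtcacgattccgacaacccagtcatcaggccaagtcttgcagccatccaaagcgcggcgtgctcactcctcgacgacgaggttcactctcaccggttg
Psmb6, chr11:70525107-70525406, plus strand: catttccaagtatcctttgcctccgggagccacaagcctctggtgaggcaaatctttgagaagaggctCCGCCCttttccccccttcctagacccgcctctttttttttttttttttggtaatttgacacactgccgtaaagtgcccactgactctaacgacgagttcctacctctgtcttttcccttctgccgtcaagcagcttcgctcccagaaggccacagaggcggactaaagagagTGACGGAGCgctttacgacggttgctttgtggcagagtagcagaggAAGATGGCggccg
Psmc6, chr14:45329574-45329873, plus strand: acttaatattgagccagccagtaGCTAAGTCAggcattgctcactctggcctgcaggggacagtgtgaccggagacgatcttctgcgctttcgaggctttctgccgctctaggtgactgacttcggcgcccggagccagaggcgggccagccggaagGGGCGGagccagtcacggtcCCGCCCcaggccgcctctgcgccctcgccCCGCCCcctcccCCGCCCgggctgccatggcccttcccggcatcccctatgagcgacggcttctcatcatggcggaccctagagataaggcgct
Psmd12, chr11:107479278-107479577, plus strand: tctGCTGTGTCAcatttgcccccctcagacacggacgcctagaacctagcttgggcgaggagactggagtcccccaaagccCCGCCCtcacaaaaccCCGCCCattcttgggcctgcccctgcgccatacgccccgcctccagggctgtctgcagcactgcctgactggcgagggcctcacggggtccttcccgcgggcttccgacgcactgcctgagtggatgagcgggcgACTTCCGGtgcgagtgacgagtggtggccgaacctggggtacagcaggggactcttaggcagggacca
Fbxo9, chr9:78109016-78109315, minus strand: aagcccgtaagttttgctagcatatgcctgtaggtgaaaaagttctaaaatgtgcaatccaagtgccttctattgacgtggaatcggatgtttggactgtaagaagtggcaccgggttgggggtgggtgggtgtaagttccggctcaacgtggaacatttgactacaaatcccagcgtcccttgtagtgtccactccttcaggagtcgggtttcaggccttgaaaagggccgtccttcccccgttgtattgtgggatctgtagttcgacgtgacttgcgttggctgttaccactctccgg
Rnf149, chr1:39577298-39577597, minus strand: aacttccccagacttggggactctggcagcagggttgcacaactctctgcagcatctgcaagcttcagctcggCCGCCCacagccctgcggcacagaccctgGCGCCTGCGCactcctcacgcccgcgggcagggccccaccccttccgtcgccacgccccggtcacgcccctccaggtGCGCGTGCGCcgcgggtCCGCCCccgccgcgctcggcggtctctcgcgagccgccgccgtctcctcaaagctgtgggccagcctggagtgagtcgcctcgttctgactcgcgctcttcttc
Rnf2, chr1:151500942-151501241, minus strand: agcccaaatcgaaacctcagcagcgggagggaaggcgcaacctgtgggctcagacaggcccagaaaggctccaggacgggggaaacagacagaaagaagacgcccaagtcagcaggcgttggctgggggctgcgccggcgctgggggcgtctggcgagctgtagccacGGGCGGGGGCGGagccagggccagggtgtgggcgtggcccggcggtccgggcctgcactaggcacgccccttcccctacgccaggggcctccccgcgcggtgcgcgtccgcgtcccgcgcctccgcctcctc
Usp28, chr9:48985135-48985434, plus strand: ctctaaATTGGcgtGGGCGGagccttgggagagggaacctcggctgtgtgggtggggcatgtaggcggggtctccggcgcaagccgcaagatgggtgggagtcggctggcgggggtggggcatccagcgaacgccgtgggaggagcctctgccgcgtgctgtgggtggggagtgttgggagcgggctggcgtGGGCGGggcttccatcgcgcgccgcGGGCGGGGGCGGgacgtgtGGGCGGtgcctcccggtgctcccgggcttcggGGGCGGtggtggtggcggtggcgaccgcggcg
Usp8, chr2:126707078-126707377, plus strand: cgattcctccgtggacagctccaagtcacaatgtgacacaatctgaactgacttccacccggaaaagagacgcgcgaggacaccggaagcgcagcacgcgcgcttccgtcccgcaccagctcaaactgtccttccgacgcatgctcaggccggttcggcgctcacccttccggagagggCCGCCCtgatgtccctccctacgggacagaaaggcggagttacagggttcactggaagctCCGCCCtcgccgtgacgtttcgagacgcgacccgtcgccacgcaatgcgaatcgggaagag

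In Psmb6, Psmc6 and Psmd12 the antioxidant response element match was TGACGGAGC, GCTAAGTCA and GCTGTGTCA in gene direction, starting at base -9, -227 and -247 from the start site, which is base 0. None of the 3 matches lay within the peak of its gene. The CCAAT box of Psma1 at base -98, both nuclear respiratory factor 1 matches of Rnf149 and both GC boxes of Usp8 were among the matches that lay within the peak. The windows of Psma5 and Fbxo9 held no match. A match is a stretch of letters and not a shown binding site.

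The RefSeq table had a window for 89 of the 116 member peaks, and for 49 of 62 ligase and 12 of 20 deubiquitinase peaks, so motif shares and base composition over all members, ligases or deubiquitinases are void for lack of coverage. The same holds for all promoter peaks, of which 3269 of 4162 had a window, so no share over them is given. It had windows for 14 of 17 peaks of both the proteasome and the conjugating role. Of the 13 proteasome windows, 4 (30.8%) held the antioxidant response element, against 12.4% of all 32851 RefSeq windows, whether or not a peak lies there. A GC box was in 10 of the 13 (76.9%), against 35.7%, and a CCAAT box in 3 (23.1%), against 37.4%. The nuclear respiratory factor 1 motif was in 3 of 13 (23.1%), against 4.60%, and the ETS motif in 2 (15.4%), against 3.89%. For the 14 conjugating enzyme windows these shares were 14.3% (antioxidant response element), 78.6% (GC box), 28.6% (CCAAT) and 21.4% (nuclear respiratory factor 1). No proteasome or conjugating window held the glucocorticoid response or heat shock element, which were in 0.475% and 7.86% of all windows. Median GC content was 59.0% for proteasome, 65.5% for conjugating and 52.7% for all RefSeq windows. As all RefSeq windows include promoters without a peak, none of these comparisons sets the roles apart from other promoters with a peak.

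Depth went with treatment. Estimated reads in peaks were 130568 to 200519 per vehicle library and 67609 to 123453 per myoglobin library, a mean ratio of 0.589, and the members held 2377 to 3872 and 1247 to 2388 of them. A member had a median of 90.5 estimated reads over the 4 vehicle and 53.5 over the 4 myoglobin libraries. The part of depth in these results was not tested. After the authors' scaling the members took 1.82% to 1.93% of the total value in vehicle and 1.84% to 1.99% in myoglobin libraries. The table held few markers with which to check the tissue. Among genes listed for the proximal tubule, 2 of 16 had a promoter peak (Cdh16, which is not particular to that segment, and Cryl1). For the loop, distal and collecting duct list it was 1 of 15 (Scnn1g). Of the endothelial, fibroblast and pericyte, and immune markers (8 each) and the 6 podocyte markers, 0 had one.

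With myoglobin, no ubiquitin or proteasome gene promoter passed the test. The limma fit on log2(value + 1), adjusted by Benjamini-Hochberg over all 6425 peaks at a threshold of 0.05, called 0 of the 116 higher and 0 lower, where 0.249% of all peaks were called (0.202% higher, 0.0467% lower). The smallest adjusted p by limma was 0.320, at Fbxo9. At an unadjusted limma p under 0.05 there were 4 higher and 3 lower members, 6.03% of 116, where 7.6% of all peaks had such a p (3.67% higher, 3.92% lower). Myoglobin and vehicle libraries did not overlap at 3 members (2.59%), 2 of them higher and 1 lower, against 3.04% of all peaks (1.45% higher, 1.59% lower). These shares were near those of the whole table. Over all members the median log2 difference was 0.03, with 62 above 0 and 54 below (0.011 without vehicle replicate 4 and 0.056 without myoglobin replicate 3), beside -0.01 over the 4162 promoter peaks and -0.02 over all peaks. The standard errors of single members ran from 0.12 to 0.70 on that log2 scale. A peak's value in a library of many cells cannot tell whether fewer cells had the promoter open or each opened it less.

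**Figure D1:**
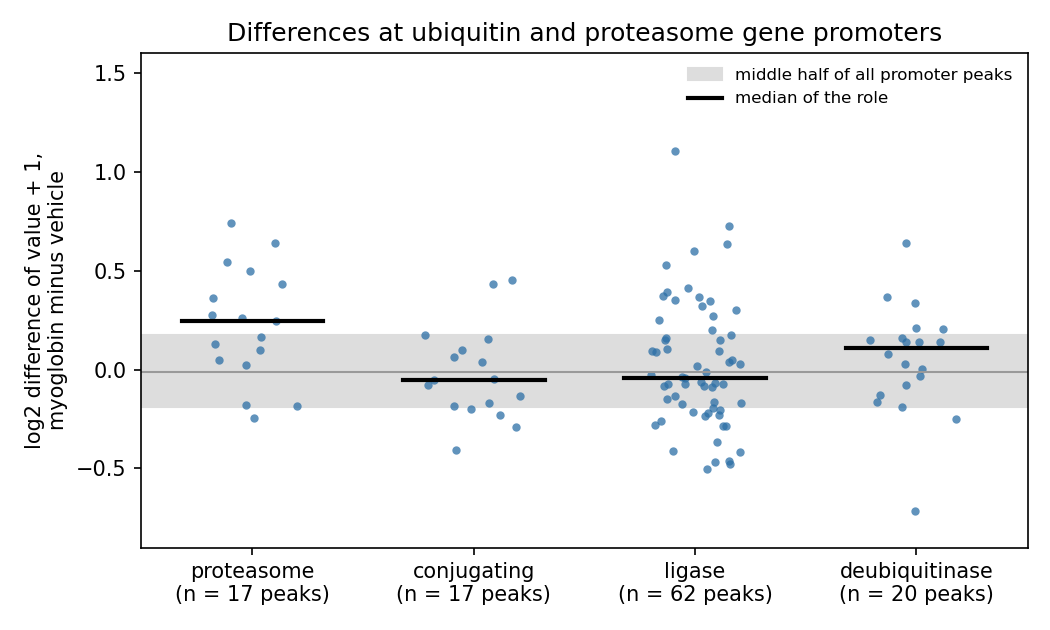
Log2 difference of value + 1, myoglobin minus vehicle, for each of the 116 member peaks (points) by role, with the role's median (black line) and the median and quartiles of all 4162 promoter peaks (grey line and band). The role medians run from -0.06 (conjugating enzymes) to 0.24 (proteasome), and single peaks of every role lie on both sides of 0; the band describes single peaks and is no test of a role's median.

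Proteasome genes were the role with the highest median difference over all peaks, but not over peaks with a mean value of at least 10, where their median was 0.10 and that of deubiquitinases 0.11. The median of the log2 differences at the 17 peaks was 0.24 (quartiles 0.05 and 0.43), with 14 above 0 and 3 below, where 48.6% of all promoter peaks were above 0. None was called. The median was 0.11 without myoglobin replicate 2, and leaving out any 1 library left between 10 and 14 of the 17 above 0. Peak height went with it. The 6 proteasome peaks with a mean value under 10 were all above 0 with a median of 0.47, beside -0.03 over the 853 promoter peaks that low. The 11 at 10 or more had a median of 0.10, with 8 above 0, beside -0.01 over 3309 promoter peaks of that height. With single libraries left out the median of these 11 ran from -0.057 to 0.18, so its sign rested on single libraries. The part of peak height in the median of the role was not tested. By library, the median distance of the 17 peaks from their own vehicle mean was 0.25, 0.36, 0.06 and 0.28 (log2) in myoglobin replicates 1 to 4 and -0.02, 0.00, 0.17 and 0.01 in vehicle replicates 1 to 4. Vehicle replicate 3 thus lay above myoglobin replicate 3, and the groups overlapped.

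The core particle's alpha ring, which gates entry of the substrate, had 4 peaks. Psma1 (chr7:114275896-114276239 of mm10, 50 bp from its start site) was at 15, 11, 16 and 15 in vehicle replicates 1 to 4 and at 17, 18, 35 and 24 in myoglobin replicates 1 to 4. All 4 myoglobin libraries lay above the vehicle libraries, 2 of them by little. Vehicle averaged 14.3 ± 2.22 and myoglobin 23.5 ± 8.27 (SD over 4 libraries). On the log2 scale the difference came to 0.64, with a standard error of 0.25 (as after every ± that follows a log2 difference) and an adjusted p of 0.551 by limma. Psma4 had 21.5 ± 2.89 in vehicle and 26.0 ± 3.56 in myoglobin, and Psma3 24.8 ± 3.40 and 27.5 ± 5.97, with log2 differences of 0.26 ± 0.21 and 0.13 ± 0.21. Psma5 had the lowest difference of the role, -0.24 ± 0.29, but without myoglobin replicate 4 it was at -0.0047 and Psmb2 was lowest, at -0.43. Its values of 16, 14, 10 and 20 in vehicle and 15, 12, 17 and 7 in myoglobin overlapped almost entirely.

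The beta ring holds the cutting sites, of which Psmb6 encodes one, and had 3 peaks. Psmb6 was low, with means of 7.25 ± 2.75 for vehicle and 8.5 ± 2.08 for myoglobin, 0.24 ± 0.37 apart on the log2 scale and 0.025 apart without vehicle replicate 4. Psmb3 stood at 22.3 ± 5.91 and 24.8 ± 3.77, and Psmb2 at 14.0 ± 2.16 and 13.0 ± 5.83, with log2 differences of 0.17 and -0.18. The 3 subunits thus lay on both sides of 0, each within its error.

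The regulatory particle unfolds substrates with its ATPases, here Psmc4 and Psmc6. Psmc6 had a peak on each side of its start site. The upstream one (chr14:45329630-45329740) was at 10, 4, 9 and 7 in vehicle and at 12, 11, 7 and 15 in myoglobin, a log2 difference of 0.55 ± 0.35 (adjusted p = 0.749 by limma). The other, at 1, 2, 5 and 1 against 4, 11, 0 and 3, rested on few reads and changed sign when myoglobin replicate 2 was left out. Psmc4 was at 8.75 ± 2.06 in vehicle and 10.8 ± 2.06 in myoglobin (0.28 ± 0.33). The ATPase peaks were thus all above 0 and all under a mean value of 10.

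The non-ATPase subunits, among them those of the lid that takes ubiquitin off the substrate, had 5 peaks, all with differences above 0. Psmd7, the partner of the deubiquitinating subunit, had the highest, 0.50 ± 0.39, at 6, 4, 10 and 4 in vehicle and 11, 9, 7 and 7 in myoglobin. Psmd12, whose promoter is shown above, was at 7, 14, 13 and 8 against 15, 15, 9 and 15 (0.36 ± 0.31). Psmd11 had a mean of 14.0 ± 0.82 in vehicle and 16.3 ± 7.14 in myoglobin, so the vehicle libraries lay close together and the myoglobin libraries far apart, from 8 to 24. The differences of Psmd11, Psmd8 and Psmd3 were 0.10, 0.05 and 0.02, and each turned negative when myoglobin replicate 2 was left out.

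The activators are alternative caps of the core particle. Psme2, a subunit of the interferon-inducible activator, had the widest member peak of the role (862 bp) and the highest value, at 78, 67, 92 and 62 in vehicle and 82, 66, 63 and 52 in myoglobin (log2 difference -0.18 ± 0.13, adjusted p = 0.799 by limma). Its start site lies 641 bp from that of Rnf31, which runs the other way, so the reads of this peak cannot be assigned to one gene. Psme4, the nuclear activator, was at the floor of the table, at 0, 2, 1 and 2 against 6, 0, 4 and 3, with an estimated 7 and 11 reads in all and a log2 difference of 0.74 ± 0.70.

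**Figure D2:**
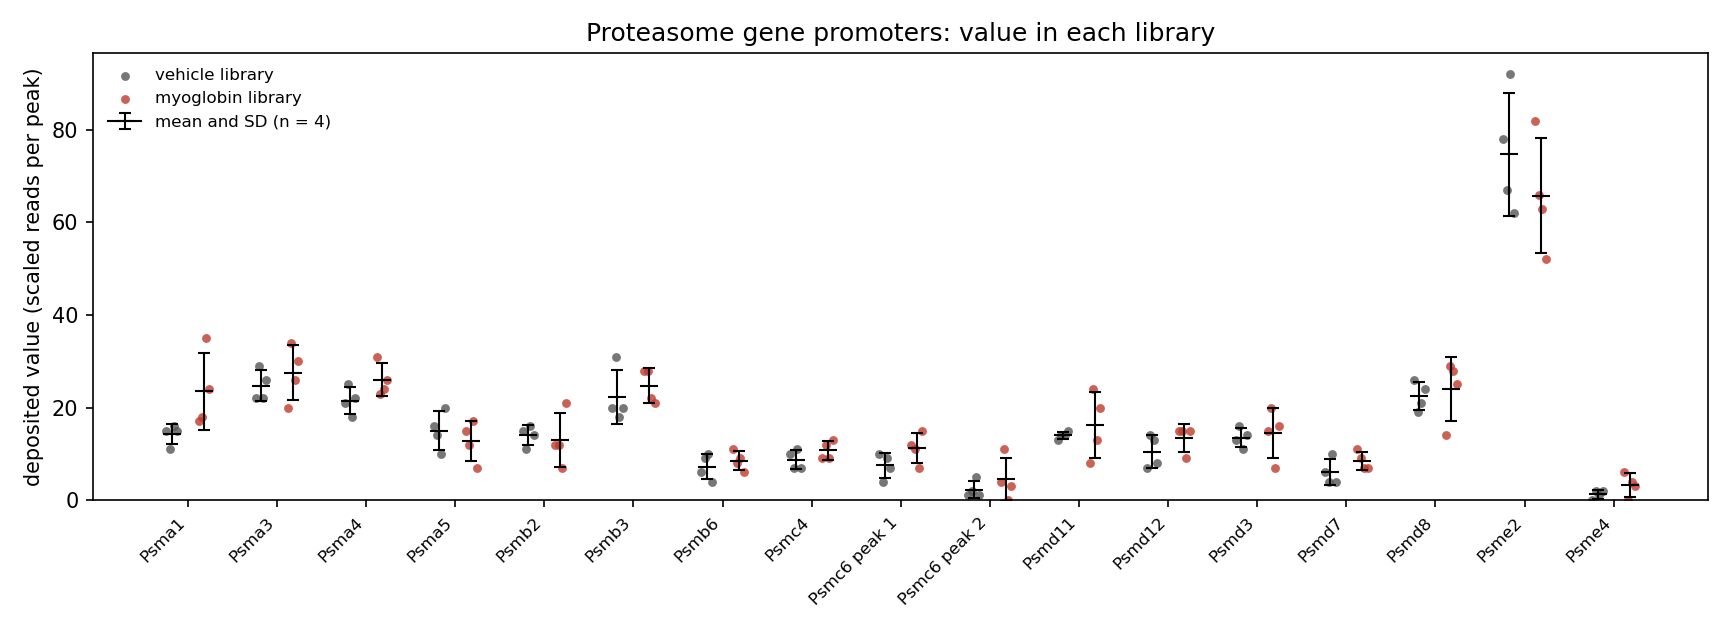
Deposited value (scaled reads per peak) of the 17 proteasome gene peaks in each vehicle (grey) and myoglobin (red) library, with mean and SD (n = 4 each). The groups overlap at every peak but Psma1, and Psme2 stands far above the others in both groups.

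Conjugating enzymes carry activated ubiquitin, or a relative of it, to the ligase. The median of the log2 differences at their 17 peaks was -0.06 (quartiles -0.18 and 0.10), with 7 above 0 and 10 below, and none at an unadjusted limma p under 0.05. The median was 0.02 without vehicle replicate 3 and -0.11 without vehicle replicate 4, so its sign rested on single libraries. Ube2d2, a conjugating enzyme that works with many ligases, was at 20, 18, 19 and 20 in vehicle and 24, 21, 34 and 28 in myoglobin. The groups did not overlap, and the vehicle libraries were nearly alike. Its log2 difference was 0.43 ± 0.22 with an adjusted p of 0.649 by limma. Ube2w, which modifies the amino terminus of proteins, was lowest among the peaks of at least 10, at 17, 19, 19 and 13 against 13, 17, 11 and 14 (-0.29 ± 0.27). The enzymes for NEDD8, a relative of ubiquitin, lay on both sides of 0, with Ube2m at -0.20 and -0.23 (2 peaks) and Ube2f at 0.17 ± 0.27.

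Ligases made up the largest role, and their 62 peaks were spread evenly around 0, with 28 above, 34 below and a median of -0.04 (quartiles -0.20 and 0.20). The sign of that median also rested on single libraries, at 0.02 without vehicle replicate 1. By family, the medians were -0.11 over 22 F-box peaks, -0.01 over 23 Rnf peaks and 0.00 over 12 Trim peaks, beside -0.08 over 3 Ube3 peaks. The 2 cullin scaffold genes stood at -0.09 ± 0.19 (Cul3) and 0.02 ± 0.23 (Cul4a). Rnf7, a RING partner of cullins, was at 0.39 ± 0.31.

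F-box genes held the member with the smallest p. Fbxo9 (chr9:78109031-78109137, 19 bp from its start site) was at 8, 5, 4 and 5 in vehicle and 18, 18, 7 and 11 in myoglobin. Myoglobin replicates 1 and 2 were high, while replicate 3 lay below the highest vehicle library. The means were 5.5 ± 1.73 and 13.5 ± 5.45, a log2 difference of 1.10 ± 0.36 (adjusted p = 0.320 by limma), from an estimated 30 and 44 reads in all. Without myoglobin replicate 3 the adjusted p by limma was 0.0809, the lowest over the alternatives for any member. The start site of Cilk1, a kinase gene, lies 127 bp from that of Fbxo9 on the other strand, so the reads of this peak cannot be assigned to one gene. Fbxw7 (chr3:84814262-84814635), the receptor through which cyclin E, Myc and Notch are degraded, was at 27, 30, 41 and 29 in vehicle and 29, 23, 21 and 21 in myoglobin. One myoglobin library lay within the vehicle range, and the log2 difference was -0.41 ± 0.20 (adjusted p = 0.633 by limma). This peak was the member farthest from its start site, at 819 bp.

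Among RING genes, Rnf149 (chr1:39577330-39577561), a membrane-anchored ligase gene, was at 23, 21, 11 and 15 in vehicle and 27, 32, 24 and 18 in myoglobin (log2 difference 0.53 ± 0.24, adjusted p = 0.598 by limma). Rnf2 (chr1:151500856-151501049), the ligase of the Polycomb complex that marks histone H2A, was at 15, 14, 18 and 21 against 16, 12, 7 and 13 (-0.50 ± 0.28, adjusted p = 0.692 by limma). Trim24 (chr6:37870516-37870823), a ligase for p53 that also reads histone marks, was at 32, 25, 23 and 29 against 16, 24, 13 and 28 (-0.46 ± 0.22, adjusted p = 0.633 by limma). All 3 had overlapping groups.

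The 20 deubiquitinase peaks had log2 differences with a median of 0.11 (quartiles -0.09 and 0.17), with 13 above 0 and 7 below, and 0.06 to 0.11 with any 1 library left out. They held both a higher and a lower member at an unadjusted limma p under 0.05. Usp28 (chr9:48985050-48985313), which takes ubiquitin off Myc and other substrates of FBXW7, was at 13, 22, 10 and 20 in vehicle and 19, 18, 32 and 34 in myoglobin, with 2 myoglobin libraries far above the vehicle range and 2 within it. Its log2 difference was 0.64 ± 0.25 (adjusted p = 0.551 by limma). The start site of Gm51673 lies 256 bp from that of Usp28 on the other strand, so the reads of this peak cannot be assigned to a single gene. Usp8 (chr2:126707184-126707472), which acts on receptors at endosomes, was at 22, 18, 18 and 18 in vehicle and 11, 14, 7 and 14 in myoglobin, so that all myoglobin libraries lay below all vehicle libraries. The means were 19 ± 2 and 11.5 ± 3.32, a log2 difference of -0.72 ± 0.27 (adjusted p = 0.551 by limma), and -0.82 to -0.52 with 1 library left out. The ISG15-specific Usp18 was at -0.13 ± 0.34, and both peaks of Usp5, which takes apart free chains, lay below 0 (-0.08 and -0.19).

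**Figure D3:**
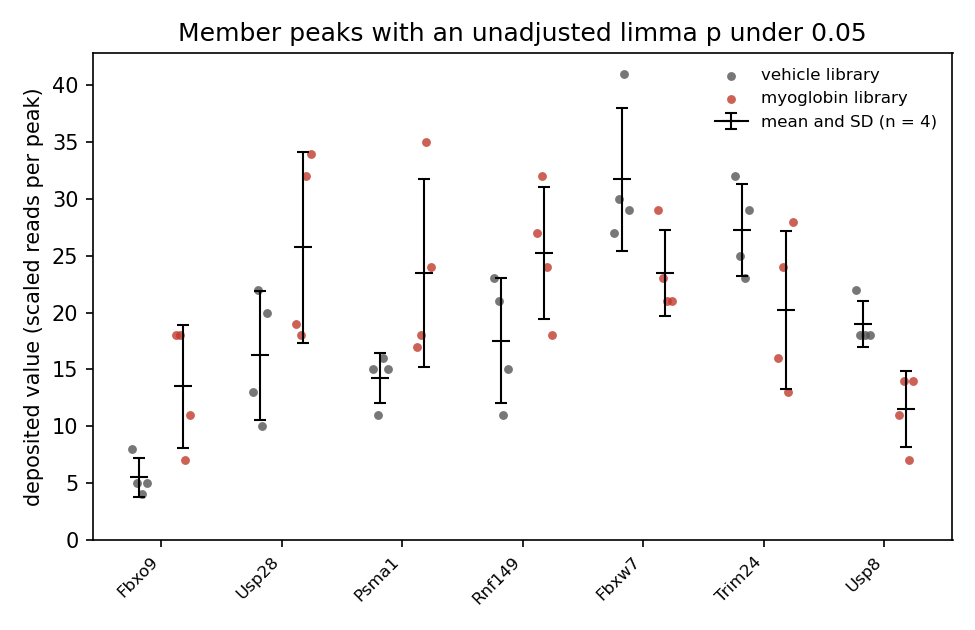
Deposited value (scaled reads per peak) of the 7 member peaks with an unadjusted limma p under 0.05, in each vehicle (grey) and myoglobin (red) library, with mean and SD (n = 4 each). Only Psma1 and Usp8 among these 7 have groups that do not overlap, and none passed after adjustment over 6425 peaks.

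How open these promoters were is compared between roles per length, as a description with no test. Per 100 bp of peak, the median value over the roles' peaks was 9.03 for deubiquitinases, 8.09 for conjugating enzymes, 7.57 for proteasome genes and 7.15 for ligases, beside 7.96 for all promoter peaks. In vehicle libraries these medians were 8.24 ± 0.44, 8.02 ± 0.43, 7.32 ± 0.81 and 6.86 ± 0.44 in that order (SD, n = 4), and in myoglobin libraries 8.48 ± 0.77, 8.0 ± 0.38, 7.77 ± 1.04 and 6.78 ± 0.36. The medians of deubiquitinase and conjugating genes lay within the spread of the libraries, as did those of proteasome genes and their neighbours on either side. That spread is between libraries over the same peaks and does not measure the spread between genes. In each group the ligase median of every library lay below that of every library for deubiquitinases and conjugating enzymes. Single genes overlapped widely, with quartiles of 5.43 and 8.89 for ligases and 6.98 and 9.94 for deubiquitinases.

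The most open members per length were at Ube2f, Trim45 and Usp22, the deubiquitinase of the SAGA coactivator. Ube2f had 16 ± 4.89 per 100 bp in vehicle and 17.9 ± 3.61 in myoglobin on a peak of 92 bp. Trim45 had 15.3 ± 1.57 and 15 ± 0.57, and Usp22 14.9 ± 0.55 and 14.6 ± 1.57. Rnf44 (14.2 over all libraries), Usp36, a nucleolar enzyme (12.1) and Ube2j2, an enzyme of the endoplasmic reticulum (10.4), were next in their roles. Psmb3 (9.71) and Psmd11 (9.39) were the most open proteasome peaks per length. The lowest of each role were Psme4 (1.89), Fbxo30 (3.87), Ube2r2 (4.78) and Usp8 (5.30).

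**Figure D4:**
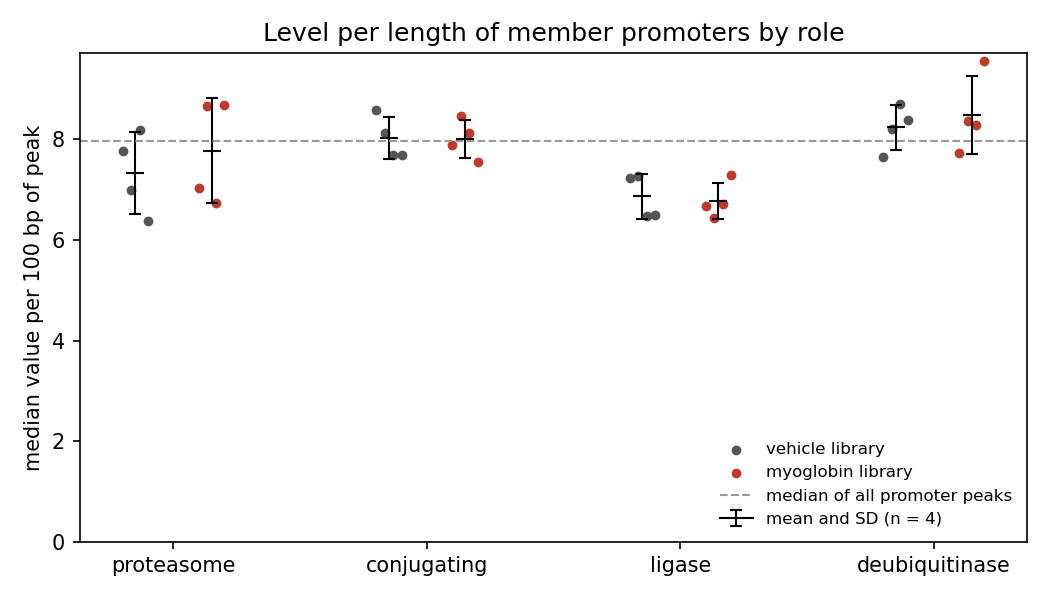
Median value per 100 bp of peak over the peaks of each role, in each vehicle (grey) and myoglobin (red) library, with mean and SD (n = 4 each) and the median of all promoter peaks (dashed). Ligase medians, from 6.44 to 7.28, lie below those of conjugating enzymes and deubiquitinases in both groups.

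The members' peaks had a median width of 233 bp and a median distance of 100.5 bp from the start site, against 222 bp and 88 bp for all promoter peaks. Within 100 bp of the start lay 58 of the 116. At the edge of the 1000 bp window, members inside it included Psme4 (623 bp), Usp11 (656 bp; mean 11 ± 3.16 in vehicle and 14.5 ± 4.65 in myoglobin) and Fbxw7 (819 bp). Just outside it lay Fbxo11 (1071 bp; 37.3 ± 6.85 and 38.0 ± 7.79). In all, 10 peaks of matching genes lay beyond the window.

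Other genes of the pathway, from a list of 216 that the naming pattern leaves out, had 85 promoter peaks, of which 0 were called higher or lower by limma. At an unadjusted limma p under 0.05 there were 4 higher and 4 lower of the 85, where 7.6% of all peaks had such a p (3.67% higher, 3.92% lower). Their median log2 difference was -0.03, with 37 above 0 and 48 below (43.5% above), beside 47.2% above 0 over all peaks. Ubiquitin and E1 genes had 2 peaks of 12 listed genes, the smaller p being that of Uba6, at 32 ± 1.83 and 29.8 ± 3.30. Ubiquitin-like modifiers had 2 peaks (Ubl5, 15.3 ± 2.63 and 15.3 ± 4.43). HECT and RBR ligases had 9 peaks with a median of -0.13, of which Herc2, the lowest in p, was at 50, 37, 44 and 47 against 33, 28, 30 and 37 (-0.46 ± 0.17, adjusted p = 0.536 by limma). Other RING and U-box ligases had 21 peaks with a median of -0.00, among them Birc3, an inhibitor of apoptosis, at 22, 23, 23 and 12 against 35, 29, 30 and 32 without overlap (0.67 ± 0.21, adjusted p = 0.292 by limma), and the partners of cullins 22 with a median of -0.06, with Anapc16 of the anaphase-promoting complex at 0.73 ± 0.28 (adjusted p = 0.551 by limma). Other deubiquitinases had 11 with a median of -0.05 (Vcpip1 -0.49 ± 0.22). Partners, shuttles and regulators of the proteasome had 18 with a median of 0.02, and 11 above 0. Rad23b, a shuttle that brings ubiquitin chains to the proteasome, was at 37, 29, 34 and 40 in vehicle and 46, 31, 43 and 65 in myoglobin (0.35 ± 0.18, adjusted p = 0.649 by limma). The median of these partners lay below that of the proteasome subunits, and the difference was not tested.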

How the data were processed

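ATAC-seq libraries of 4 vehicle and 4 myoglobin tubuloid samples were grouped by their titles. The authors deposited one table of 6425 peaks on mm10, whose values are a score: reads per peak, scaled per library by the authors and rounded, as the nearly equal totals and regular steps of the whole numbers show. The submitters' processing notes name DESeq2 1.36.0, Picard 3.0.0, featureCounts, Trimmomatic 0.39 and STAR 2.7.10a. Their roles, the peak caller, the handling of duplicates and any Tn5 shift are not given in the sources used here.

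The steps gave, by maximum likelihood, a scaling factor for each library and from it estimated reads in peaks, 67609 to 200519 per library. Values are not counts, so no count test was used. The test was limma 3.58.1 (R 4.3.3) on log2(value + 1) with a variance trend (78.5 prior and 6 residual degrees of freedom), no filter and Benjamini-Hochberg adjustment over all peaks. Both steps were tested on simulated data. With reads simulated at the estimated depths, limma called 10.1% of 1.5-fold, 49.6% of 2-fold and 91.6% of 4-fold changes, placed at peaks other than the lowest. Most changes of 1.5-fold would thus go uncalled. A difference of log2(value + 1) understates the change of low peaks. Distances, coordinates and gene names are those of the deposited table. RefSeq windows of GRCm38.p6 were matched by symbol, and those of Ube2d2 and Ube2w are not used here.

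The members and lists were chosen with earlier results of these data known. Named members were those with an unadjusted p under 0.05, the largest and smallest difference of each role among mean values of at least 10, the 2 highest and 1 lowest per length in each role, all proteasome genes, and the smallest p of each other pathway list. Ube2m, Rnf7, Cul3, Cul4a, Usp5, Usp18, Usp11 and Fbxo11 were named after their values were seen. Alternatives were 3 other scalings, pseudocounts of 0.5 and 5, a mean value of at least 10, leaving out single libraries, a block on the replicate number, no variance trend, library weights and other distance windows. Leaving out myoglobin replicates 2 and 3 together, the shallowest libraries, was chosen after seeing the data.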

Additional observations from a re-analysis of the deposited data

Results flagged for a closer look

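In a group of 4 libraries, 1 library can lie far from the other 3. Among 68 such sets at the 34 named member peaks, 4 had a gap this wide, where chance gives about 3.4. Fbxo30 had a value of 15 in myoglobin replicate 2 and 11 in the others. Psmb3 had 31 in vehicle replicate 2, with the others at 18 to 20. Psmd12 had 9 in myoglobin replicate 3 and 15 in the others, and Usp8 had 22 in vehicle replicate 1 and 18 in the others. At 3 of the 4 the other libraries had one identical whole number, so that any other value counts as a gap.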

How the results depend on the processing

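Under each alternative 0 members were called by limma, with a lowest adjusted p from 0.0809 (Fbxo9, without myoglobin replicate 3) to 0.790 (without vehicle replicate 3), while calls over all peaks ran from 7 to 22 (16 as reported; 7, 9 and 8 without vehicle replicates 1, 2 and 4, and 7 with no variance trend). At an unadjusted p under 0.05 there were 2 to 6 higher and 0 to 4 lower members. Over all 17 peaks the proteasome median kept its sign in every setting tried, from 0.11 to 0.31 with single libraries left out. So did the deubiquitinase median. Over the 11 proteasome peaks with a mean value of at least 10 the median was 0.10. There it ran from -0.057 to 0.18 with single libraries left out, so its sign rested on single libraries. The conjugating enzyme median was 0.038 over peaks with a mean of at least 10 and -0.11 to 0.020 with single libraries left out, and the ligase median -0.045 to 0.024. Without myoglobin replicates 2 and 3 the median was 0.10 over all members, 0.020 for conjugating enzymes and 0.052 for ligases.

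Leaving out single libraries turned the sign of 5 of 17 proteasome, 8 of 17 conjugating enzyme, 28 of 62 ligase and 8 of 20 deubiquitinase peaks. Each proteasome peak was recomputed under the settings that kept it, whereas the other peaks so treated had been picked for a large difference or small p. The filter on a mean value of at least 10 dropped 6 of the 17 proteasome peaks. The distance windows were not applied to single peaks. With single libraries left out, the log2 difference ran from -0.43 to 0.059 at Psmb2, -0.10 to 1.09 at the downstream peak of Psmc6, -0.12 to 0.38 at Psmd11, -0.15 to 0.31 at Psmd3 and -0.057 to 0.28 at Psmd8. Without myoglobin replicates 2 and 3 it was -0.0040 at Psma3, 0.19 at Psmb2, -0.12 at Psmd11 and -0.24 at Psmd8, and with library weights -0.0011 at Psmd8. The causes were not tested. With a replicate block 0 members and 10 of all peaks were called, and the lowest adjusted p of a member was 0.370. Same-numbered libraries had correlations of deviations of 0.031, 0.0033, -0.0041 and -0.0057, and differently numbered ones -0.0327 to 0.035. With so few reads per peak, such correlations cannot tell whether libraries shared a mouse or culture. Few reads per peak limit what these libraries can show.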
